A study of Homo sapiens with 12 samples.

Results

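SETD2 knockdown was compared directly with WDR5 knockdown, to find which transcripts differ between depletion of the H3K36 and of the H3K4 methylation machinery. The arrays were chosen by their titles, 2 for siSETD2 and 2 for siWDR5, which makes 4 of the 12 arrays in the series. All arrays hold RNA from NCCIT, a human embryonal carcinoma line from a germ cell tumour, transfected with siRNA and compared on Affymetrix Human Gene ST arrays after labelling of 250 ng of total RNA. The remaining arrays are 2 each of siEED, siRNF2, the dual siEED+RNF2 and the non-targeting siNTC, whose titles carry the word re-analysis, and they are used here to set levels beside the comparison. Not given in the sources used here were the siRNA against SETD2, its transfection times and whether replicates were separate cultures. The p-values therefore reflect the spread between arrays, which may be technical, and the number of arrays limits precision. Fewer cells of a kind and less RNA per cell cannot be told apart on such arrays.

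SETD2 and WDR5 act at different stages of transcription. SETD2 travels with elongating RNA polymerase II and trimethylates H3K36 across gene bodies, where the mark is read by PWWP domain proteins such as DNMT3B and MSH6. WDR5 is a core subunit shared by the MLL/COMPASS complexes, which methylate H3K4 around promoters, and it also sits in the NSL and ATAC acetyltransferase complexes.

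Levels are log2 values as deposited by the authors, so that a difference of 1 is a 2-fold change. Replicate arrays correlated at 0.9966 for siSETD2 and 0.9962 for siWDR5 across transcript clusters, while siSETD2 with siWDR5 gave 0.9899 to 0.9905. Markers of the line were high in the compared arrays: SOX2, the pluripotency factor, measured 12.69 and 12.65 in siSETD2 and 12.84 and 12.82 in siWDR5. SALL4 measured 11.06 and 11.13 in siSETD2 and 10.91 and 10.75 in siWDR5. The 7 measured blood cell markers averaged 4.48 to 4.59 in the 4 arrays, close to 4.4, the median level in the dimmest of 5 equal bins of genes, and the 18 endoderm markers averaged 4.93 to 5.06. POU5F1, NANOG and TDGF1 were not analysed here.

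Each siRNA lowered its own target. SETD2 measured 9.01 and 9.08 in the siSETD2 arrays, 10.72 and 10.76 in siWDR5 and 10.78 and 10.81 in siNTC. Both siSETD2 arrays lay below every other array of this set, and the log2 difference from siWDR5 was -1.70 (95% confidence interval -1.84 to -1.55, adjusted p = 2.2e-08 from limma), a 3.24-fold difference. WDR5 measured 8.39 and 8.24 in siWDR5, 9.91 and 9.89 in siSETD2 and 9.48 and 9.58 in siNTC. The siWDR5 arrays were the lowest, and the siSETD2 arrays were above siNTC as well. The log2 difference of 1.59 (interval 1.44 to 1.74, adjusted p = 5.3e-08) thus contained a difference of -1.21 between siWDR5 and siNTC. It also contained one of 0.37 between siSETD2 and siNTC. That second part was not particular to siSETD2, since the remaining knockdowns also stood above the siNTC mean of 9.53. Their WDR5 means were 9.84 (siEED), 9.87 (siRNF2) and 10.1 (dual knockdown).

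**Figure D1:**
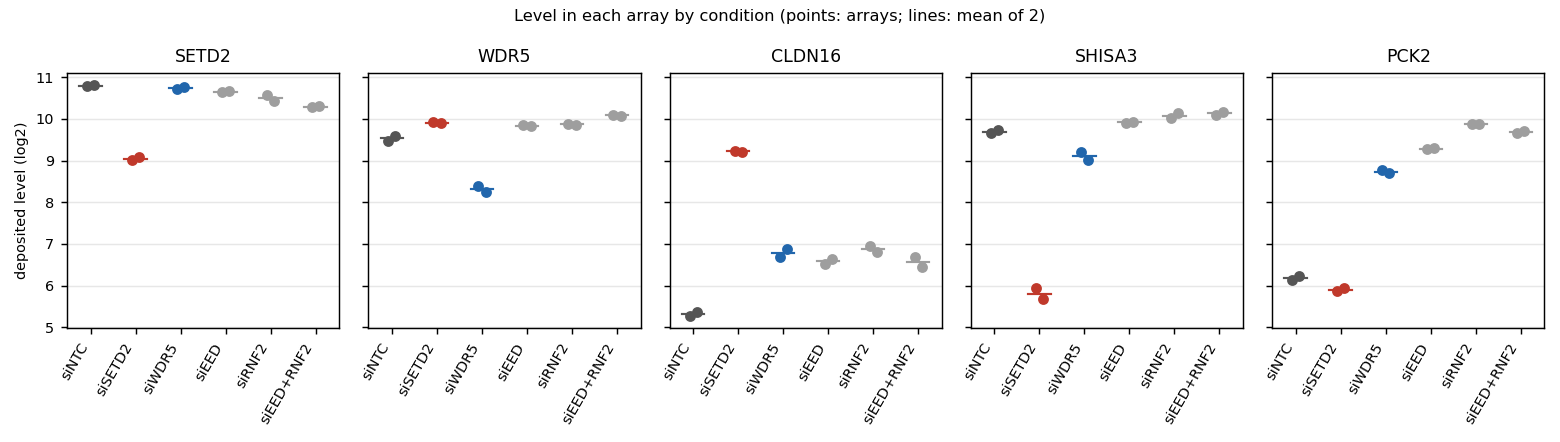
Deposited log2 level (y axis) of SETD2, WDR5, CLDN16, SHISA3 and PCK2 in each of the 12 arrays, by siRNA condition (x axis). Points are arrays and lines are means of 2 arrays. SETD2 lies at 9.01 and 9.08 in siSETD2, WDR5 at 8.39 and 8.24 in siWDR5, and PCK2 in siSETD2 (5.87 and 5.94) lies near siNTC (6.14 and 6.24) and below the other knockdowns.

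Of 18417 genes tested, 550 (2.99%) were higher and 526 (2.86%) lower in siSETD2 than in siWDR5 at a limma adjusted p under 0.05 and a fold of at least 1.5 (a log2 difference of 0.585), together 1076 genes or 5.84%. The median difference over all genes was 0.01 and the median absolute difference 0.14, with a median standard error of 0.08. A fold of at least 2 was reached by 79 of the genes called higher and 124 of those called lower, and a fold of at least 4 by 2 and 11. The genes with the largest differences were thus more often lower in siSETD2. In all 1076 the siSETD2 arrays lay apart from the siWDR5 arrays, as they also did in 64% of all genes tested. With no fold threshold, 3200 of the 18417 genes were higher and 2627 lower at a limma adjusted p under 0.05. The counts at p under 0.05 before adjustment, given for lists below, rest on a looser cut still. That cut takes in at least these 3200 and 2627 genes, a large share of all genes. Its full count over all genes is not given here, so such counts alone do not set a list apart.

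**Figure D2:**
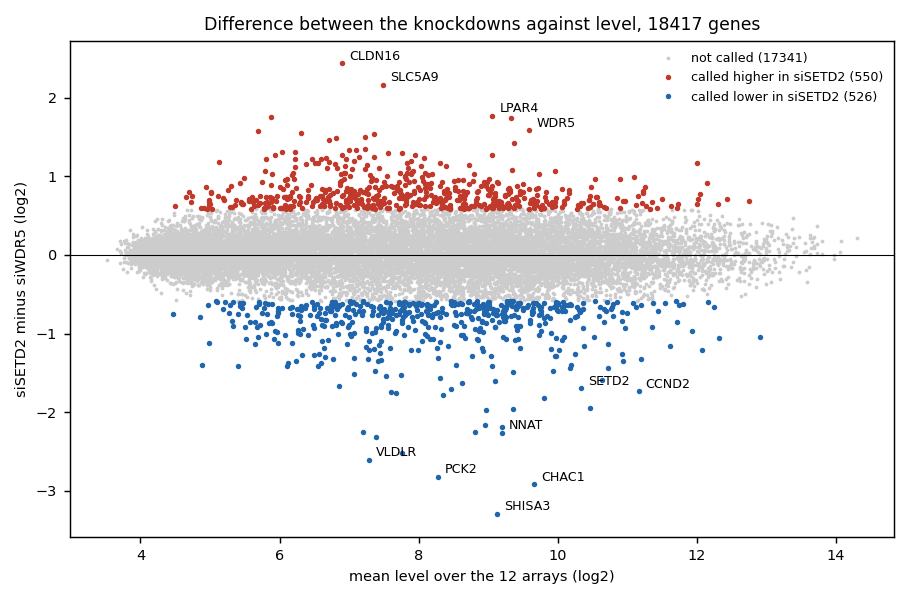
Difference siSETD2 minus siWDR5 on the log2 scale (y axis) against the mean log2 level over the 12 arrays (x axis) for 18417 genes. Red and blue points are the 550 and 526 called genes. The lowest point is SHISA3 at -3.30 and the highest is CLDN16 at 2.44.

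Among the gene lists, the amino acid response held the most genes that were lower in siSETD2. In this pathway, shortage of amino acids or other stress leads to phosphorylation of eIF2alpha and to translation of the transcription factor ATF4, which turns on transporters, enzymes of amino acid synthesis, tRNA synthetases and stress regulators through C/EBP-ATF response elements. Of 64 measured members of this list, 30 (46.9%) were lower in siSETD2 than in siWDR5 and none were higher by limma, beside 2.86% lower and 2.99% higher over all genes. Before adjustment, 59 members were lower at p under 0.05 and 3 were higher. The median difference was -0.54, beside 0.01 over all genes. The list was written with earlier results of these arrays known, and its direction is not independent evidence.

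On average over the group, the difference lay between siWDR5 and siNTC rather than between siSETD2 and siNTC. Averaged over the 64 genes, the log2 level was 8.998 in both siSETD2 arrays, 9.01 in both siNTC arrays, and 9.86 and 9.83 in the siWDR5 arrays. In the polycomb knockdowns the same average was higher still, at 10.1 in both siEED arrays, 10.4 in both siRNF2 arrays and 10.2 in both dual knockdown arrays. The siSETD2 arrays were therefore the knockdown arrays of the series that stood nearest to siNTC for this group.

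Among the regulators, 10 of 15 measured genes were lower in siSETD2, with a median difference of -1.17. CHAC1, an enzyme of glutathione breakdown, measured 7.44 and 7.46 in siSETD2, 10.43 and 10.31 in siWDR5 and 8.04 and 8.05 in siNTC, and its difference of -2.92 (interval -3.08 to -2.76, adjusted p = 9.3e-10) was a 7.56-fold one. The siSETD2 arrays were below siNTC and the siWDR5 arrays far above it. SESN2, a leucine-responsive inhibitor of mTORC1, measured 7.36 and 7.40, 9.60 and 9.49 and 7.49 and 7.36 in the same order, with a difference of -2.16 (adjusted p = 1.8e-08). Here siSETD2 and siNTC overlapped. TRIB3, a pseudokinase that dampens ATF4 signalling, differed by -1.75 (adjusted p = 2.3e-07), and DDIT3, the stress factor CHOP, by -1.43 (adjusted p = 1.8e-07). VLDLR, a lipoprotein receptor counted with this group, measured 5.48 and 5.51 in siSETD2, 8.18 and 8.03 in siWDR5 and 6.34 and 6.35 in siNTC (difference -2.61, adjusted p = 5.8e-09). DDIT4, an inhibitor of mTORC1, was unlike the others, since it stood above siNTC in both knockdowns, by 1.48 in siSETD2 and 2.56 in siWDR5. The ATF4 transcript itself measured 11.43 and 11.36 in siSETD2 and 11.69 and 11.79 in siWDR5, a difference of -0.35 (adjusted p = 0.0013) that was under the fold threshold.

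Enzymes of amino acid synthesis followed with 8 of 14 measured genes lower. PCK2, the mitochondrial phosphoenolpyruvate carboxykinase, measured 5.87 and 5.94 in siSETD2 and 8.76 and 8.69 in siWDR5, beside 6.14 and 6.24 in siNTC, and differed by -2.82 (interval -2.96 to -2.68, adjusted p = 5.5e-10). ASNS, asparagine synthetase, measured 9.65 and 9.68 in siSETD2, 10.81 and 10.80 in siWDR5 and 9.61 and 9.74 in siNTC. The siSETD2 and siNTC arrays overlapped, and both siWDR5 arrays lay above them (difference -1.14, adjusted p = 5e-07). PSAT1 and PSPH, the last steps of serine synthesis, differed by -1.21 (adjusted p = 1.2e-06) and -1.26 (adjusted p = 2.6e-07), whereas PHGDH, the first step, differed by -0.33 (adjusted p = 0.0016) and missed the fold threshold. CTH, cystathionine gamma-lyase, differed by -1.36 (adjusted p = 1e-07).

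Amino acid transporters were lower for 6 of 12 measured genes. SLC6A9, a glycine transporter, measured 7.18 and 6.94 in siSETD2, 8.80 and 8.58 in siWDR5 and 7.80 and 7.82 in siNTC (difference -1.63, adjusted p = 3.6e-07). SLC7A5, the light chain of the large neutral amino acid transporter, differed by -1.44 (adjusted p = 1.4e-07), and its partner SLC3A2 by -0.56 (adjusted p = 4.2e-05), just under the fold threshold. Without siSETD2 replicate 2 (-0.60) or siWDR5 replicate 2 (-0.59), SLC3A2 passed it. SLC7A11, the cystine importer, differed by -1.16 (adjusted p = 2.3e-07).

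The tRNA synthetases, listed with the tRNA exportin XPOT, had the smallest median difference of the 5 roles, -0.40, and 1 of 14, CARS1, was called (difference -0.67, adjusted p = 2.9e-05), although 13 of 14 were lower at p under 0.05 before adjustment. NARS1, the exception, differed by 0.35. Of 9 secreted or membrane members, 5 were called lower. INHBE, an inhibin beta chain, measured 5.28 and 5.52 in siSETD2, 8.09 and 7.75 in siWDR5 and 5.50 and 5.40 in siNTC (difference -2.52, adjusted p = 6.3e-08). ULBP1, a ligand of the NK cell receptor NKG2D, measured 7.91 and 7.59, 9.70 and 9.72 and 7.86 and 7.96 in that order (difference -1.96, adjusted p = 8.9e-08). In both the siSETD2 and siNTC arrays overlapped, with siWDR5 higher. LAMP3, a lysosomal membrane protein, was the least secure of the called members at -0.62 (adjusted p = 0.007), and it lost the call without siSETD2 replicate 1 (-0.56) or siWDR5 replicate 2 (-0.51).

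**Figure D3:**
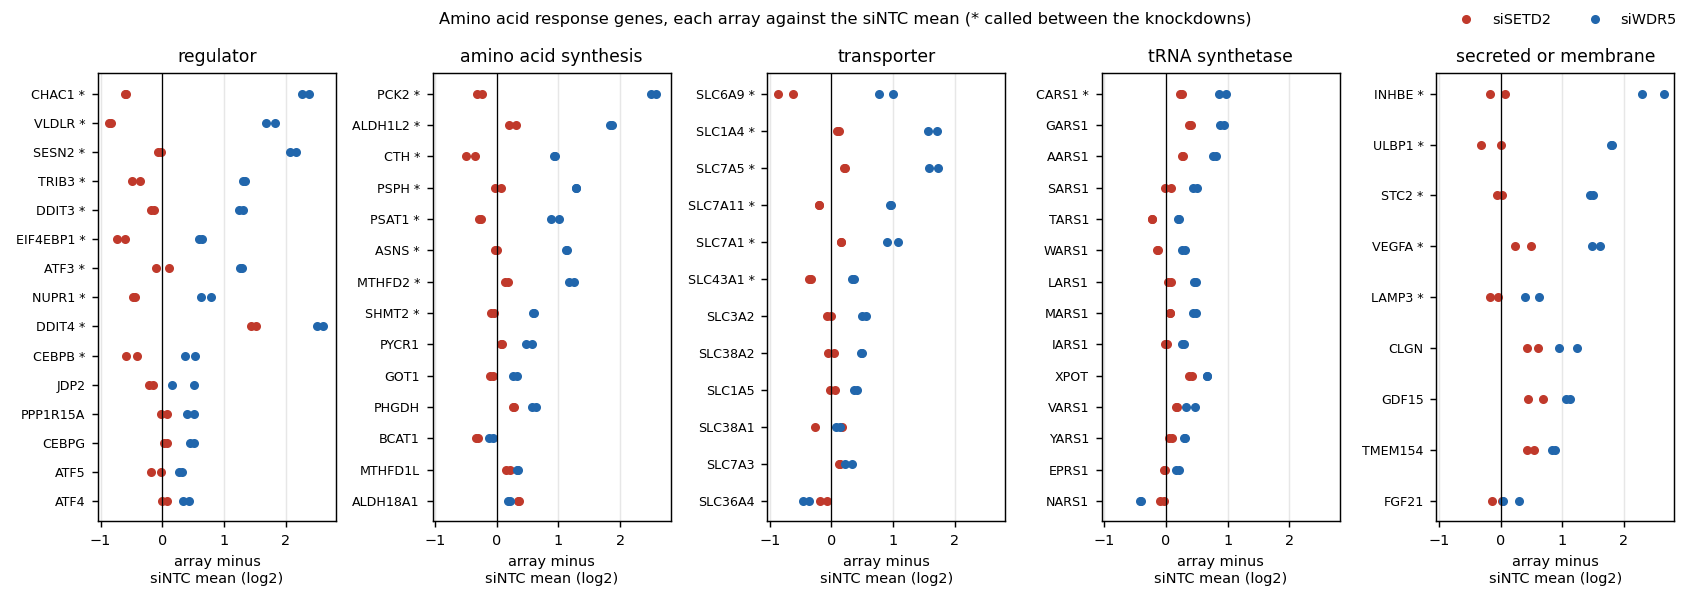
Each siSETD2 (red) and siWDR5 (blue) array minus the siNTC mean on the log2 scale (x axis) for the 64 measured amino acid response genes (y axis), in panels by role and sorted by the difference between the knockdowns. Stars mark the 30 called genes. The siSETD2 points of PCK2, SESN2 and INHBE lie near 0, while their siWDR5 points lie about 2 log2 units or more above it.

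Promoter sequence was set beside this group because ATF4 acts through a short element. The element was searched as TGATGNAA and its reverse complement TTNCATCA, from 250 bases before to 50 after the RefSeq start site (GRCh38.p14). It was found in 1270 of 35116 promoters (3.62%) and in 361 of 14239 promoters of genes tested here (2.54%). Of 50 promoters of measured amino acid response genes in the table, 17 (34%) held it. The share was 5 of 21 (23.8%) among members called lower in siSETD2 and 12 of 29 (41.4%) among the others. No promoter was available for the rest of the 30 called and 64 measured members, INHBE, PSPH and SLC7A11 among them. The shares therefore describe only the promoters at hand. The 5 called members with the match are ATF3, CHAC1, ASNS, SLC7A1 and CARS1. The promoters of 3 that differed by over 2-fold are shown with the match in capitals. The gene strand is printed 5′ to 3′, and the coordinates are those of the whole window.
CHAC1 (chr15:40953221-40953520, plus strand): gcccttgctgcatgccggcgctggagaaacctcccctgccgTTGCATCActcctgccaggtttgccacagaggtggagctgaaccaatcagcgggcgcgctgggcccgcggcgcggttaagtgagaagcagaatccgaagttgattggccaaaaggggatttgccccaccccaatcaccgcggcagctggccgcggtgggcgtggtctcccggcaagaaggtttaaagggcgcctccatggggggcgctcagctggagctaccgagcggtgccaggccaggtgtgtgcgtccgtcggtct
ATF3 (chr1:212565157-212565456, plus strand): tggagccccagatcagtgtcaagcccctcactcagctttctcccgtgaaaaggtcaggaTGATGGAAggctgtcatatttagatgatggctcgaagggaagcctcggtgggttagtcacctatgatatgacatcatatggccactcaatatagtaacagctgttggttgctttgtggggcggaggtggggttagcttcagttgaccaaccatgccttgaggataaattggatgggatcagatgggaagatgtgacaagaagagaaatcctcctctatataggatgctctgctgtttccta
ASNS (chr7:97872359-97872658, minus strand): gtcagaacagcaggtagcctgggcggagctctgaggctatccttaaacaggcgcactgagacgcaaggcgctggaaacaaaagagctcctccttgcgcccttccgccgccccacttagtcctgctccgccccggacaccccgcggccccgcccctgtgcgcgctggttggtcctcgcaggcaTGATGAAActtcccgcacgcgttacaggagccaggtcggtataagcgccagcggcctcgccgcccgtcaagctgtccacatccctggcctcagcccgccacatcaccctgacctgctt
The matches began 209 bases before the start site in CHAC1, 191 in ATF3 and 68 in ASNS. ATF3, a stress-induced repressor, measured 5.67 and 5.46 in siSETD2, 6.83 and 6.85 in siWDR5 and 5.65 and 5.47 in siNTC, and SLC7A1, an arginine transporter, differed by -0.83 (adjusted p = 6.1e-06).

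A further group of genes was lower in siSETD2 through the siSETD2 arrays themselves. SHISA3, which holds back WNT and FGF receptors in the endoplasmic reticulum, had the largest difference of any called gene. It measured 5.94 and 5.68 in siSETD2, 9.20 and 9.02 in siWDR5 and 9.65 and 9.73 in siNTC, a difference of -3.30 (interval -3.50 to -3.10, adjusted p = 1.4e-09). The siSETD2 arrays stood far below all others. NNAT, an imprinted proteolipid, measured 7.28 and 7.15 in siSETD2, 9.54 and 9.42 in siWDR5 and 10.00 and 10.00 in siNTC (difference -2.26, adjusted p = 1.6e-08). FLT1, a receptor of VEGF, measured 5.86 and 5.58, 7.98 and 7.96 and 8.48 and 8.39 in that order (difference -2.25, adjusted p = 3.2e-08). For these genes siNTC lay above siWDR5, which lay above siSETD2. The same order held for SELENOP, the selenium carrier (difference -1.98, adjusted p = 2.8e-08), for PLXDC2, a plexin domain protein (-1.83, adjusted p = 3.5e-08), and for the zinc finger gene ZNF486 (-1.95, adjusted p = 2.3e-07), whose close paralogues may share probes. GRPR, the receptor of gastrin-releasing peptide, measured 5.82 and 6.15 in siSETD2 and 8.29 and 8.31 in siWDR5 (difference -2.31, adjusted p = 1e-07), and EDNRB, an endothelin receptor, 6.66 and 6.70 and 8.49 and 8.39 (difference -1.76, adjusted p = 2.2e-07). FLT1, GRPR and EDNRB were below siNTC in the polycomb knockdowns too, though less so than in siSETD2. Their polycomb means were 6.87 to 7.315, 7.05 to 7.54 and 7.34 to 7.81, beside siNTC means of 8.43, 8.06 and 8.21.

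Several genes of migration, signalling and the cell cycle moved in opposite directions from siNTC in the 2 knockdowns. RND3, a small GTPase family protein that loosens actin fibres, measured 7.81 and 7.76 in siSETD2, 9.46 and 9.42 in siNTC and 10.07 and 9.99 in siWDR5 (difference -2.25, adjusted p = 1.3e-09). NRP1, a co-receptor of VEGF and semaphorins, measured 7.53 and 7.64, 8.57 and 8.40 and 9.83 and 9.72 in that order (difference -2.19, adjusted p = 1.3e-08). CCND2, a cyclin of G1, measured 9.75 and 9.83, 10.77 and 10.74 and 11.60 and 11.45 (difference -1.73, adjusted p = 2.5e-08). In each, both siNTC arrays lay between the pairs. PDE5A, a cyclic GMP phosphodiesterase, differed by -1.78 (adjusted p = 6.3e-08) and TNC, the matrix protein tenascin C, by -1.71 (adjusted p = 6.1e-08).

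Genes higher in siSETD2 were led by CLDN16, a tight junction protein of magnesium transport. It measured 9.24 and 9.21 in siSETD2, 6.69 and 6.88 in siWDR5 and 5.26 and 5.38 in siNTC, a difference of 2.44 (interval 2.23 to 2.65, adjusted p = 2.8e-08). Both knockdowns stood above siNTC, by 3.90 and 1.46. SLC5A9, a sodium-coupled sugar transporter, had the same order at 9.05 and 9.09 in siSETD2, 7.05 and 6.77 in siWDR5 and 5.22 and 5.44 in siNTC (difference 2.16, adjusted p = 6.3e-08). P3H2, a collagen prolyl hydroxylase, measured 8.61 and 8.85, 7.19 and 7.20 and 6.80 and 6.97 in that order (difference 1.54, adjusted p = 6.9e-07). CLDN16 and SLC5A9 stood above siNTC in the polycomb knockdowns as well. In siEED, siRNF2 and the dual knockdown, CLDN16 means were 6.58, 6.88 and 6.57, beside 6.78 in siWDR5. SLC5A9 means were 7.68, 8.01 and 7.93, beside 6.91 in siWDR5.

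Other genes of this direction were led by LPAR4 and BEX1. LPAR4, a lysophosphatidic acid receptor, measured 10.41 and 10.35 in siSETD2, 9.59 and 9.64 in siNTC and 8.70 and 8.52 in siWDR5 (difference 1.77, adjusted p = 6.3e-08). BEX1, an adaptor of neurotrophin signalling, measured 9.89 and 9.71, 9.14 and 9.01 and 8.05 and 8.06 (difference 1.74, adjusted p = 6.3e-08). For both, siNTC lay between the knockdowns, and the same held for CNTN1, a neural adhesion protein (difference 1.49, adjusted p = 7.2e-07), and for CCL2, a monocyte chemokine (difference 1.33, adjusted p = 9e-06). HAPLN1, which links hyaluronan to proteoglycans, was instead level with siNTC in siSETD2, at 6.58 and 6.46, 6.77 and 6.33 and 4.87 and 5.01 in the same order (difference 1.58, adjusted p = 2.2e-06). For RAB3C, MEIOC and PROCR most of the difference lay between siSETD2 and siNTC. RAB3C, a vesicle GTPase, differed by 1.75 (adjusted p = 2.6e-07), and it lay 1.396 from siNTC in siSETD2 and -0.36 in siWDR5. MEIOC, a meiotic RNA factor, differed by 1.30 (adjusted p = 1.2e-06), with 0.98 and -0.32 from siNTC, and PROCR, the protein C receptor, by 1.27 (adjusted p = 1.2e-06), with 1.03 and -0.24. The rise of PROCR was not particular to siSETD2. Its means were 8.29 in siEED, 8.05 in siRNF2 and 8.54 in the dual knockdown, beside 7.33 in siNTC. MEIOC means in those knockdowns were 7.64, 8.08 and 7.03, beside 7.32 in siNTC. RAB3C means were 5.77, 6.19 and 5.53, beside 5.56 in siNTC. RFESD, at 7.37 and 7.28 in siSETD2, 5.85 and 6.06 in siNTC and 6.05 and 5.51 in siWDR5, differed by 1.55 (adjusted p = 6.3e-05), and its siWDR5 and siNTC arrays overlapped. The rest of the 20 highest were SMIM8, CCDC3, GNPDA2, ZNF287, KLHDC8B, DNAAF11 and FAM83B, each at 1.27 or above.

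**Figure D4:**
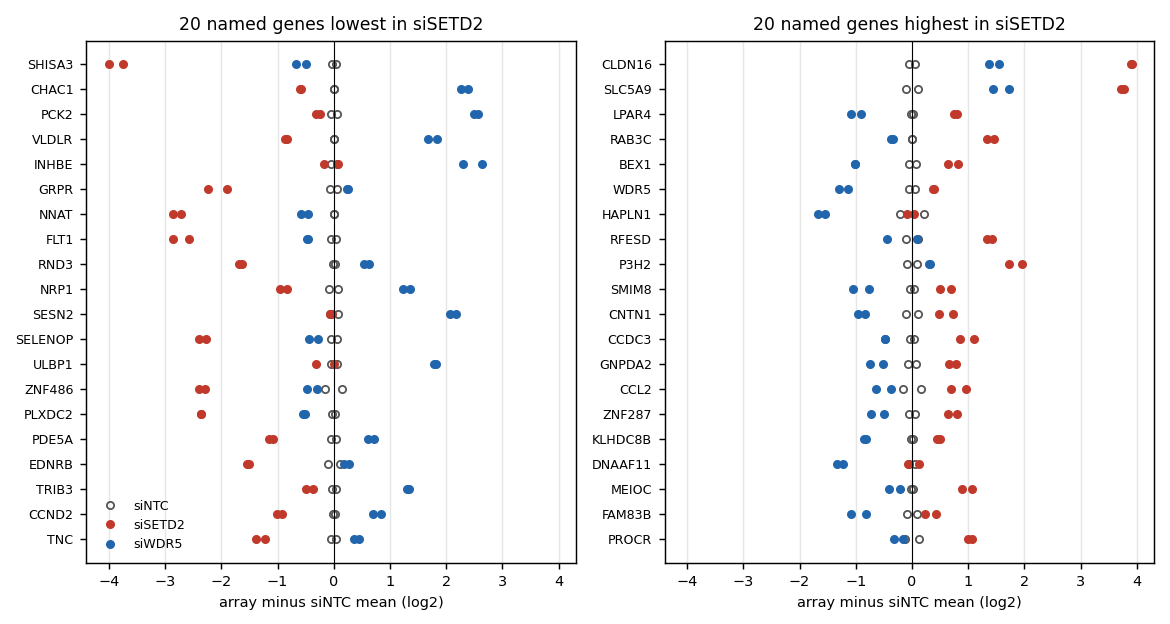
Each siSETD2 (red), siWDR5 (blue) and siNTC (open) array minus the siNTC mean on the log2 scale (x axis) for the 20 genes with the lowest and the 20 with the highest difference among those named (y axis). SHISA3, NNAT and FLT1 depart from 0 mainly in siSETD2, CHAC1, PCK2 and INHBE mainly in siWDR5, and RND3 and NRP1 in both directions.

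Over all called genes, the siNTC arrays were as often near one knockdown as the other. Both siNTC arrays lay between the pairs in 560 of 1076 (52%), beyond siSETD2 in 109 (10.1%) and beyond siWDR5 in 129 (12%), and they overlapped a pair in 278 (25.8%). Over all genes tested the share between was 11.4%. Called genes were selected for a gap between the pairs, which leaves room for siNTC, so these shares are not comparable. The siNTC mean was nearer to siWDR5 for 534 of the 1076 (49.6%), beside 48.2% of all genes. The polycomb knockdowns were nearer to siWDR5 for 722 genes for siEED (67.1%), 703 for siRNF2 (65.3%) and 706 for the dual siEED+RNF2 (65.6%), beside 58.6%, 56.2% and 57.5% of all genes. Among the genes lower in siSETD2 those shares were 74.3%, 76% and 70.9%, and among the genes higher 60.2%, 55.1% and 60.5%.

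In the H3K36 list, which holds SETD2 itself, 2 of 40 measured genes were higher and 2 lower (10% together, beside 5.84% of all genes), with a median difference of -0.05. NSD1, a writer of H3K36 mono- and dimethylation, measured 8.61 and 8.65 in siSETD2, 7.98 and 7.90 in siWDR5 and 8.32 and 8.28 in siNTC (difference 0.69, adjusted p = 1.3e-05). The related NSD2 and NSD3 differed by -0.20 (adjusted p = 0.019) and -0.10 (adjusted p = 0.36). SMYD2, a lysine methyltransferase, was called lower at -0.59 (adjusted p = 4.5e-05), but it fell short of the fold threshold without siSETD2 replicate 2 (-0.57) or siWDR5 replicate 2 (-0.56). KDM8, a hydroxylase named as an H3K36 demethylase, was called higher at 0.60 (adjusted p = 0.00018) and lost the call without siSETD2 replicate 2 (0.52) and with the mean of its clusters (0.39). Of 15 readers of the mark none was called by limma, with 5 higher and 2 lower before adjustment (p under 0.05). DNMT3B, the de novo DNA methyltransferase, came nearest, at 12.51 and 12.48 in siSETD2, 11.94 and 11.89 in siWDR5 and 12.25 and 12.26 in siNTC. Its difference of 0.58 (adjusted p = 3.5e-05) passed the fold threshold without siSETD2 replicate 2 (0.59) or siWDR5 replicate 1 (0.60). DNMT3A differed by 0.06 (adjusted p = 0.51), and of 13 elongation partners none was called (1 higher and 4 lower before adjustment (p under 0.05)), with IWS1 at -0.37 (adjusted p = 0.0058) and SUPT6H at -0.10 (adjusted p = 0.28).

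In the COMPASS list, 2 of 31 measured genes were higher, WDR5 among them, and 1 was lower (9.68%, beside 5.84% of all genes), with a median of -0.04. SETD1B, the catalytic subunit of a COMPASS complex, measured 7.17 and 7.10 in siSETD2, 8.02 and 7.98 in siWDR5 and 8.01 and 7.93 in siNTC (difference -0.87, adjusted p = 1.6e-06). The siSETD2 arrays were low and siWDR5 overlapped siNTC. HCFC2, a host cell factor, measured 7.30 and 7.47, 6.51 and 6.34 and 7.19 and 7.15 in that order (difference 0.96, adjusted p = 4.2e-05). Partners of WDR5 in the COMPASS core were not called, with RBBP5 at 0.39 (adjusted p = 0.00078), ASH2L at 0.17 (adjusted p = 0.044) and DPY30 at -0.15 (adjusted p = 0.15). The methyltransferases KMT2A, KMT2B, KMT2C and KMT2D lay between -0.29 and -0.06, also uncalled. Among 12 PRC2 and 18 PRC1 subunits no call was made by limma, while before adjustment (p under 0.05) there were 3 higher and 1 lower PRC2 subunits and 7 higher and 4 lower PRC1 subunits.

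Pluripotency genes were higher in siSETD2 for 4 of 23 measured (17.4%, beside 2.99% of all genes) and lower for none by limma, with a median of 0.07. Before adjustment, 10 were higher and 4 lower at p under 0.05. LIN28A, the RNA-binding repressor of let-7, measured 12.39 and 12.36 in siSETD2, 11.62 and 11.57 in siWDR5 and 12.33 and 12.22 in siNTC (difference 0.78, adjusted p = 6.2e-06). Here siSETD2 was near siNTC. L1TD1, an RNA-binding protein of pluripotent cells, measured 12.13 and 12.09, 11.32 and 11.27 and 11.49 and 11.39 in that order (difference 0.81, adjusted p = 5.5e-06), and here siWDR5 was the nearer. DPPA3, a maternal and germ cell factor, measured 13.49 and 13.52, 12.78 and 12.86 and 11.46 and 11.35 (difference 0.69, adjusted p = 1e-05), far above siNTC in both knockdowns. The polycomb knockdowns stood near siWDR5 for DPPA3, with means of 12.91 (siEED), 12.96 (siRNF2) and 12.87 (dual knockdown). TFCP2L1 was called at 0.59 (adjusted p = 5.8e-05) and lost the call without siSETD2 replicate 2 (0.54), without siWDR5 replicate 1 (0.55) and under each centring. SOX2 differed by -0.16 (adjusted p = 0.043).

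Germline and meiosis genes were called in both directions, 5 higher and 2 lower of 27 (25.9%, beside 5.84% of all genes). TEX15, a meiotic factor, measured 7.12 and 6.73 in siSETD2 and 5.70 and 5.69 in siWDR5 (difference 1.23, adjusted p = 3.3e-05), and PIWIL1, a PIWI protein, 6.07 and 5.93 and 5.16 and 5.18 (difference 0.83, adjusted p = 1.8e-05). MAEL, a piRNA pathway protein, went the other way at 4.82 and 4.89 in siSETD2 and 5.78 and 5.74 in siWDR5 (difference -0.91, adjusted p = 5.6e-06). The called markers of other lineages were all lower in siSETD2, with a share of 5.56% to 12.5% in each list beside 2.86% of all genes: 2 of 19 mesoderm, 2 of 18 neuroectoderm, 2 of 16 trophoblast, 2 of 22 smooth muscle and fibroblast, and 1 of 18 endoderm genes. The list medians were -0.05, -0.02, -0.03, -0.06 and -0.0 in that order, so the lists as wholes hardly differed. Before adjustment (p under 0.05), 3 mesoderm genes were higher and 4 lower, and 3 neuroectoderm genes were higher and 5 lower. For trophoblast the counts were 0 and 6, for smooth muscle and fibroblast 3 and 8, and for endoderm 2 and 4. TFAP2A, a factor of trophoblast and neural crest, measured 10.76 and 10.71 in siSETD2, 11.76 and 11.65 in siWDR5 and 12.36 and 12.33 in siNTC (difference -0.97, adjusted p = 1.5e-06). FN1, fibronectin, measured 9.49 and 9.50, 10.69 and 10.62 and 10.67 and 10.61 (difference -1.16, adjusted p = 1.6e-07). KDR, a VEGF receptor, measured 5.15 and 5.47, 6.29 and 6.42 and 6.52 and 6.20 (difference -1.04, adjusted p = 8.3e-05). In all 3 the siSETD2 arrays were the lowest of these 6 arrays. For KDR the polycomb knockdowns were about as low, with means of 5.36 (siEED), 5.33 (siRNF2) and 5.39 (dual knockdown), beside 5.31 in siSETD2. For TFAP2A and FN1 the polycomb means were above those of siSETD2.

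Extracellular matrix genes were lower for 6 of 40 and higher for 1, HAPLN1 (17.5% together, beside 5.84% of all genes). Besides TNC and FN1, SPARC, a collagen-binding glycoprotein, measured 9.59 and 9.62 in siSETD2, 10.66 and 10.66 in siWDR5 and 10.61 and 10.72 in siNTC (difference -1.05, adjusted p = 4.4e-07). The median of the list was -0.02. In the hypoxia and glycolysis list 3 of 28 were lower and 1 higher (14.3%). ADM, the vasodilator adrenomedullin, measured 9.07 and 9.09 in siSETD2, 10.50 and 10.46 in siWDR5 and 10.65 and 10.59 in siNTC (difference -1.40, adjusted p = 6.3e-08), whereas VEGFA measured 8.09 and 7.84, 9.22 and 9.09 and 7.49 and 7.72 (difference -1.19, adjusted p = 4.6e-06). ADM was thus low in siSETD2 and VEGFA high in siWDR5. VEGFA was also high in the polycomb knockdowns, with means of 9.38 (siEED), 9.77 (siRNF2) and 9.58 (dual knockdown). Among 21 ERK feedback and immediate early genes, 3 were called lower and 1 higher (19%, beside 5.84% of all genes). The median was -0.06, and before adjustment 6 were lower and 4 higher at p under 0.05. Of those called lower, JUN, an AP-1 subunit, measured 6.28 and 6.35, 7.66 and 7.62 and 6.92 and 7.09 (difference -1.33, adjusted p = 7e-07), and DUSP6, an ERK phosphatase, differed by -0.71 (adjusted p = 0.00013). In the WNT, SHISA and NODAL list, 4 of 43 were lower (9.3%, beside 2.86% of all genes) and none higher by limma, and before adjustment 10 were lower and 9 higher at p under 0.05. FST, the activin antagonist follistatin, differed by -1.40 (adjusted p = 1.4e-07) and ID2, an inhibitor of basic helix-loop-helix factors, by -0.86 (adjusted p = 2.2e-06), while the other 6 SHISA genes were not called.

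Of 18 claudins, 3 were called higher (16.7%, beside 2.99% of all genes), and 1 was with quantile normalization, with centring on the median of all clusters or without siSETD2 replicate 1. Besides CLDN16 these were CLDN10 at 0.60 (adjusted p = 0.00038) and CLDN1 at 0.60 (adjusted p = 0.0029). Both fell under the fold threshold with quantile normalization (0.58 each), without siSETD2 replicate 1 (0.57 and 0.50), and, for CLDN10, without siWDR5 replicate 1 (0.47) or, for CLDN1, without siWDR5 replicate 2 (0.55).

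Mitotic genes were higher in siSETD2 for 4 of 38 (10.5%, beside 2.99% of all genes) and lower for none by limma, with a median of 0.16 beside 0.01 over all genes. Before adjustment, 21 were higher and 7 lower at p under 0.05. CENPE, a kinetochore motor, measured 9.39 and 9.34 in siSETD2, 8.24 and 8.16 in siWDR5 and 9.35 and 9.30 in siNTC (difference 1.17, adjusted p = 4.6e-06). KIF20B, a kinesin of cytokinesis, measured 9.06 and 9.03, 8.01 and 8.01 and 9.20 and 9.03 (difference 1.04, adjusted p = 3.2e-06). In both, siWDR5 was low and siSETD2 overlapped siNTC. Among DNA repair genes RAD50, of the MRN complex, was called at 0.99 (adjusted p = 6.3e-05), and of 38 DNA replication genes GINS1 was called at 0.64 (adjusted p = 2.5e-05), without siWDR5 replicate 1 at 0.575 and uncalled. ER chaperones had a median of 0.22. Before adjustment, 18 of 27 were higher and 4 lower at p under 0.05. By limma 1 was called in each direction (7.41%, beside 5.84% of all genes). KDELR3, a retrieval receptor, was higher at 1.16 (adjusted p = 4.4e-06), and HERPUD1, of ER-associated degradation, was lower at -0.83 (adjusted p = 2.2e-06). In the cholesterol list MSMO1, a sterol oxidase, was the 1 gene of 19 called, at 0.91 (adjusted p = 7.8e-06). The share called was 5.56% for DNA repair, 2.63% for DNA replication and 5.26% for cholesterol, each under the 5.84% of all genes. No splicing factor among 35 was called by limma, with 7 higher and 14 lower before adjustment (p under 0.05).

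**Figure D5:**
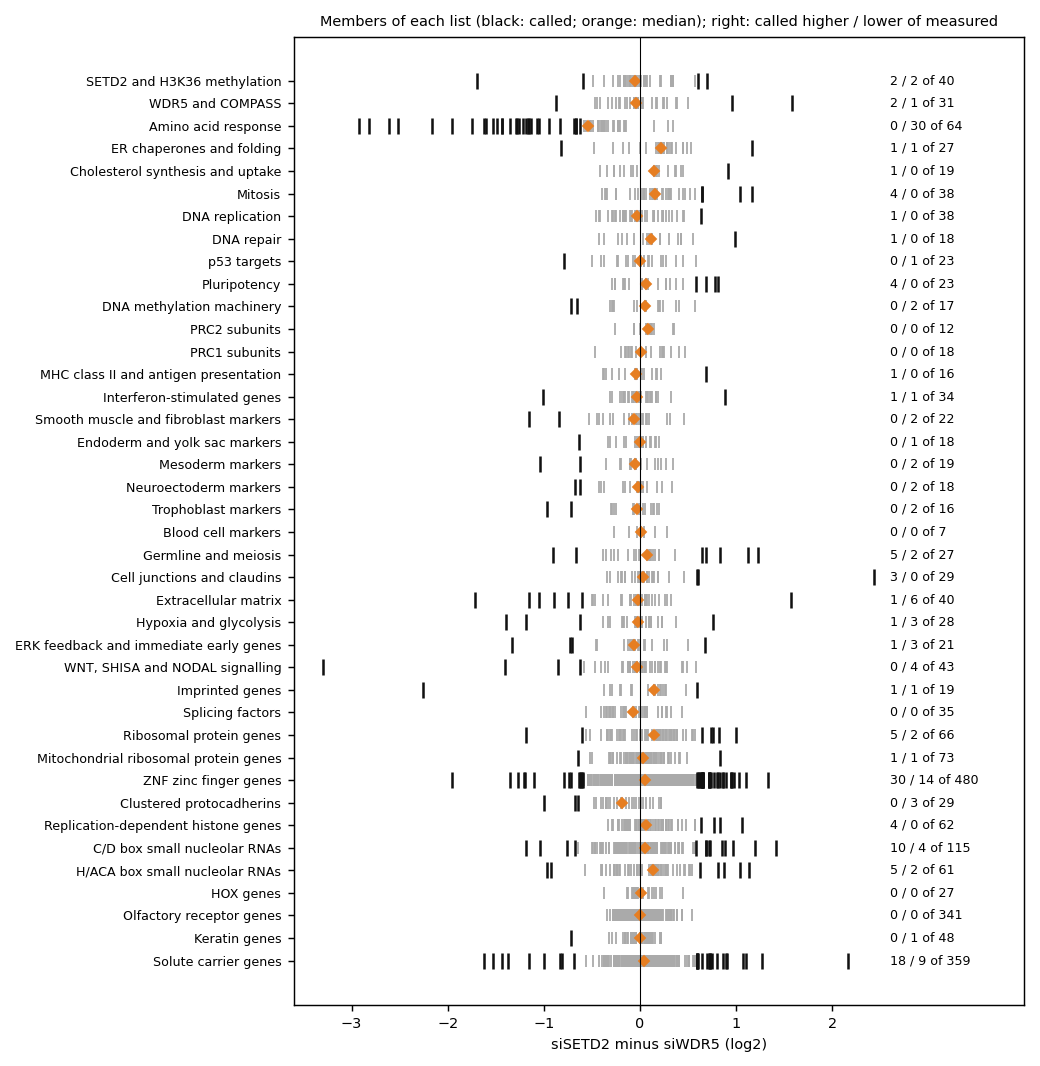
Difference siSETD2 minus siWDR5 on the log2 scale (x axis) of every measured member of each gene list and family (y axis). Marks are genes, black where called, and orange diamonds are medians. The amino acid response has its median at -0.54 and 30 of 64 members called lower, while the medians of the other lists lie between -0.19 and 0.22.

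Gene length and level were compared as properties outside the test. In 5 equal bins of gene span, the share called lower was 2.04%, 1.71%, 2.39%, 2.58% and 5.55% from the shortest to the longest bin, whose median spans were 2.7 and 153.8 kb. The share called higher was 2.45%, 2.39%, 3.64%, 3.51% and 2.94%. The median difference was -0.028 in the longest bin and 0.009 to 0.027 in the others, and Spearman's rank correlation between span and difference was -0.044 across 18386 genes, which are not independent. For level, the dimmest bin held 5 genes called higher and 1 called lower of 3678, and the middle bin 5.44% and 4.79%, so few calls were made where signals were low.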

How the data were processed

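RNA of NCCIT cells was hybridized to 12 arrays (2 each of 6 siRNA conditions). The table deposited by the authors holds log2 values of 33297 transcript clusters. The submitters' notes list GCRMA and Partek without versions or settings. Background and between-array adjustment thus preceded deposit, and this fixes how calls split between higher and lower. The values were used without further adjustment.

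Gene names came from the platform annotation and were updated by gene number to RefSeq (GRCh38.p14): 12083 had no gene listed, 1754 had several and were not named, and 19460 had 1, of which 19429 matched by number. The brightest cluster stood for a gene with several (769 genes), leaving 18417 genes, without a filter on dim ones. The transcript targeted by siRNF2 is not reported here.

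With limma 3.58.1 (R 4.3.3), 1 mean for each condition was estimated from the whole set of 12 arrays (6 residual degrees of freedom). The contrast was siSETD2 minus siWDR5, with empirical Bayes moderation and Benjamini-Hochberg adjustment. Differences from siNTC are given as values. Promoters came from RefSeq. The fit was tested on simulated data. Plots used matplotlib 3.10.9 and Python 3.11.15.

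The members, the 29 gene lists and 11 families, and the rule for named genes were chosen with earlier results of these data known. Named were the siRNA targets, CLDN16, SHISA3 and PCK2, the 20 highest and 20 lowest differences among called genes, up to 5 called members of each list (the largest others where none was called), and the members of the SETD2 and WDR5 lists. Amino acid response members in each role were added after their values were seen. Symbols of small RNAs and uncharacterized genes were counted, not named. Alternatives covered the arrays fitted, a replicate block, moderation, normalization, centring, dim genes, clusters, thresholds and leaving out each compared array.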

Additional observations from a re-analysis of the deposited data

Results flagged for a closer look

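Both knockdowns departed from siNTC by at least 1.5-fold in opposite directions, with both siNTC arrays between them, in 7 genes that were higher and 15 that were lower in siSETD2. The difference between these 2 effects is the direct comparison itself, which limma called for each, and the siNTC arrays are shared by both effects. The named genes higher in siSETD2 and lower in siWDR5 were LPAR4 (1.77), BEX1 (1.74), SMIM8 (1.5), CNTN1 (1.49), GNPDA2 (1.35) and ZNF287 (1.33), with the log2 difference siSETD2 minus siWDR5 in parentheses. Those lower in siSETD2 and higher in siWDR5 were CHAC1 (-2.92), VLDLR (-2.61), RND3 (-2.25), NRP1 (-2.19), PDE5A (-1.78), CCND2 (-1.73), SLC6A9 (-1.63), FST (-1.4), JUN (-1.33) and EIF4EBP1 (-1.29), which encodes a repressor of cap-dependent translation. RND3 lay -1.66 from siNTC in siSETD2 and 0.59 in siWDR5, and VLDLR lay -0.85 and 1.76 from it. The polycomb knockdowns shared the direction of siSETD2 for BEX1 and of siWDR5 for LPAR4. In siEED, siRNF2 and the dual knockdown, BEX1 means were 9.56, 9.76 and 9.75, beside 9.07 in siNTC. LPAR4 means were 9.13, 8.49 and 8.10, beside 9.615 in siNTC.

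Among the 12083 transcript clusters with no gene listed, which the report does not use, 322 were higher and 211 lower in siSETD2 than in siWDR5 at the same thresholds (4.41%, beside 5.69% of the 19460 clusters with 1 gene).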

How the results depend on the processing

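The counts of 550 genes higher and 526 lower moved by over 1.5 times when the features or thresholds themselves changed. They were 923 and 830 over every transcript cluster, 3200 and 2627 with no fold threshold, and 79 and 124 at a fold of at least 2. At an adjusted p under 0.01 they were 546 and 524. The split was 518 and 551 with quantile normalization, 516 and 558 with centring on the gene median, and 494 and 571 with centring on the median of all clusters. Leaving out 1 compared array gave 576 to 609 higher and 522 to 573 lower. In those fits the lone array is assumed to vary like the other conditions. SETD2 stayed between -1.73 and -1.66 and WDR5 between 1.51 and 1.67 in all alternatives, and the count of called genes with siNTC between was 541 to 676, beside 560. The replicate numbers do not pair the arrays: the deviations of same-numbered siSETD2 and siWDR5 arrays correlated at -0.0576. With the replicate block the counts were 550 and 527. Called named genes kept their sign in all alternatives, and 18 of 134 lost the call in at least 1, with main differences of 0.69 or less in size. Of 25 counts of called members, in lists and roles with 3 or more calls in a direction, 3 moved by over 1.5 times: the claudins, and the junction list that holds them, went from 3 higher to 1 with quantile normalization, with centring on the median of all clusters and without siSETD2 replicate 1, and the H/ACA box genes from 5 higher to 9 without siWDR5 replicate 1. The cause was not tested.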

Other observations

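Counts of called genes in gene families are read beside 2.99% of all genes higher and 2.86% lower in siSETD2, together 5.84%. Zinc finger genes were higher in siSETD2 for 30 of 480 and lower for 14 (9.17% together), with a median of 0.06. The lowest after ZNF486 was ZNF826P, at 6.15 and 5.89 in siSETD2, 7.25 and 7.49 in siWDR5 and 8.56 and 8.52 in siNTC (difference -1.35, adjusted p = 3.7e-06 from limma). Close paralogues on such arrays can share probes. Ribosomal protein genes were higher for 5 of 66 and lower for 2 (10.6%). RPL39L, a paralogue of RPL39 known from testis, measured 5.43 and 5.81 in siSETD2 and 6.87 and 6.74 in siWDR5 (difference -1.19, adjusted p = 1.8e-05), while RPL7L1, a ribosome assembly factor, measured 11.50 and 11.53 and 10.56 and 10.48 (difference 1.00, adjusted p = 7.7e-07). Replication-dependent histone genes were higher for 4 of 62 (6.45%) and lower for none by limma, with 23 higher and 7 lower before adjustment (p under 0.05). H2AC12 led them at 1.06 (adjusted p = 3.2e-06). Among small nucleolar RNAs, 10 of 115 C/D box genes were higher and 4 lower (12.2%), and 5 of 61 H/ACA box genes were higher and 2 lower (11.5%). Without siWDR5 replicate 1, 9 H/ACA box genes were higher. Of 359 solute carrier genes 18 were higher and 9 lower (7.52%). Clustered protocadherins had a median of -0.19, with 3 of 29 lower (10.3%), among them PCDHB15 at -0.999 (adjusted p = 9.2e-05).

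Smaller lists held 1 or a few calls. The share called was 5.88% of the interferon list and 4.35% of the p53 list, near or under the 5.84% of all genes. It was 11.8% for the DNA methylation machinery and 10.5% for the imprinted list. In the DNA methylation machinery TET3, a 5-methylcytosine oxidase, was lower at -0.72 (adjusted p = 4.3e-05) among 17 genes, and TET2 was lower at -0.65 (adjusted p = 0.00011) but not with the mean of its clusters (-0.42) or without siWDR5 replicate 2 (-0.53). In the imprinted list, NNAT was lower and NDN, a MAGE family protein, was higher at 0.59 (adjusted p = 0.00026), a call lost without siSETD2 replicate 1 (0.54), without siWDR5 replicate 2 (0.56) and under each centring. Of 34 interferon-stimulated genes BST2, the virus tether tetherin, was lower at -1.01 (adjusted p = 5.1e-05) and IFIT5 higher at 0.89 (adjusted p = 7.9e-06). Of 23 p53 targets TNFRSF10B, a TRAIL receptor that is also induced by DDIT3, was lower at -0.79 (adjusted p = 6.5e-06). Of 27 HOX and 341 olfactory receptor genes none was called by limma, with 2 and 28 higher and 1 and 11 lower before adjustment (p under 0.05).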
